A study of Mus musculus with 2 samples.

Results

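The vascular basement membrane genes described here are Col4a1, Col4a2, Lama4, Lamb1, Lamc1, Nid1, Nid2, Hspg2, Sparc and Fn1. They were picked by gene symbol, with earlier results of these data known. Each matched 1 gene of the count matrix, so that all 10 members were found among 27514 genes. The matrix comes from single-cell RNA-seq of endothelial cells sorted from the dorsal aorta of mouse embryos, taken on embryonic day 10.5, when blood cell clusters bud from the vessel wall. The study asked at which step between arterial endothelium and blood cells the transcription factor SP3 acts. SP3-null embryos, homozygous for the mutant allele Sp3tm1Sus, were set against wild-type embryos. Sp3+/- parents gave rise to both genotypes, the strain being C57Bl6/J x B6129SF1/J, and the mutation was present from fertilization in every cell type. Cells of the embryos of each genotype were pooled, and the sources used here do not give the number of embryos. The sort kept cells positive for ESAM, CD144 and CD31 that lacked Ter119 and had low or no CD41. With 1 library for each genotype, effects of genotype, pool and library cannot be told apart, and no test was made between them.

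A basement membrane is the thin sheet of matrix on which endothelial cells sit. Laminin trimers bound to integrins on the cell surface form a first network, type IV collagen forms a second, covalently crosslinked one, and nidogens and the heparan sulfate proteoglycan perlecan bridge both. Sparc binds collagen IV in the secretory pathway and in the matrix, and fibronectin forms fibrils that surround early vessels and is required for embryonic vessel development. Cells that leave the aortic wall during the endothelial to hematopoietic transition (EHT) round up and detach from this sheet.

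The promoter sequences are shown because SP3 is known to bind GC boxes, and because 2 members share 1 promoter. RefSeq promoter windows (GRCm38.p6, the build of the files, 300 bases each) were found for 6 of the 10 members, and none for Lama4, Lamc1, Nid2 and Fn1. Col4a1 and Col4a2 lie on opposite strands of chromosome 8. The starts on which their windows are set are 21 bases apart, and the windows share 78 bases. The 5′ end of the Col4a1 gene as listed lies further out, at 11312889. Both genes overlap at these 5′ ends, while the kit reads 3′ ends. The windows of Col4a1 (chr8:11312777-11313076, minus strand), Col4a2 (chr8:11312555-11312854, plus strand), Hspg2 (chr4:137468553-137468852, plus strand) and Sparc (chr11:55420031-55420330, minus strand) follow, 5′ to 3′ on the strand of the gene, with GC boxes (GGGCGG, or CCGCCC for the other strand) in capitals.
Col4a1: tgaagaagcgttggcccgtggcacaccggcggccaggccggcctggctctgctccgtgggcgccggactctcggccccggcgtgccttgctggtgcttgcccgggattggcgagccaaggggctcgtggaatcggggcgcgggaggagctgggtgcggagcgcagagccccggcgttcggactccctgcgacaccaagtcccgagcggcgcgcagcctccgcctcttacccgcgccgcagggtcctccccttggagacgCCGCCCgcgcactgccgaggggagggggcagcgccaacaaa
Col4a2: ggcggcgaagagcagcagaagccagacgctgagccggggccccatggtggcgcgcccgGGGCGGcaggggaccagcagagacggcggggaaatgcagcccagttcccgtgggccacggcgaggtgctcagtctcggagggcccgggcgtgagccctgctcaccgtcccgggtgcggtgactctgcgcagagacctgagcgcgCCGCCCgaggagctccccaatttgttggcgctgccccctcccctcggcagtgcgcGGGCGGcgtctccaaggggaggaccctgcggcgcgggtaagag
Hspg2: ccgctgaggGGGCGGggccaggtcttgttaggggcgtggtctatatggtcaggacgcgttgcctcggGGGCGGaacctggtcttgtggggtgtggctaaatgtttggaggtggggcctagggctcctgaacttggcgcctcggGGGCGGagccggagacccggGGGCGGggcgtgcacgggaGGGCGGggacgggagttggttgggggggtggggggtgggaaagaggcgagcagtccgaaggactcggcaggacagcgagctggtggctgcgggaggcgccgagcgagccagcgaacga
Sparc: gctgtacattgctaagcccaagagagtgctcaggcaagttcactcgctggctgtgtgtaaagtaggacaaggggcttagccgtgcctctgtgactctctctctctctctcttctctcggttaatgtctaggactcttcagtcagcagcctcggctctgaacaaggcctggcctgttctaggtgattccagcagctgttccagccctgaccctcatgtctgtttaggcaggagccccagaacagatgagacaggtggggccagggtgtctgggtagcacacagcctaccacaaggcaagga
The GC box, searched on both strands, occurred 5 times in the Hspg2 window, 3 times in Col4a2, 2 times in Lamb1, 1 time each in Col4a1 and Nid1 and 0 times in Sparc. The Col4a1 box is the same site as 1 of the 3 Col4a2 boxes, read from the other strand within the shared bases. The GC box occurred in 35.7% of 32851 mouse promoter windows of the same length. The CCAAT box (CCAAT, or ATTGG for the other strand) occurred 1 time each in Col4a1, Col4a2, Lamb1 and Nid1 and 0 times in Hspg2 and Sparc, against 37.4% of all windows. These are matches of letters only, and nothing about binding follows from them.

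The SP3-null library held 3954 cells with a median of 15638.5 unique molecular identifiers (UMIs) per cell, and the wild-type library 4451 cells with a median of 14664. Both libraries shared 5 cell barcodes. Sp3 itself stood at 35.6 CPM (its UMI count per total UMI count of those cells, as CPM throughout) in the SP3-null and 46.3 CPM in the wild-type endothelium, a log2 ratio of -0.38 (95% interval -0.48 to -0.28). The kit reads 3′ ends, and the sources used here do not give which part of the gene the mutation removes, so this level does not check the genotype labels. All intervals cover counting error only. The deposited classes follow the EHT path. Arterial endothelium (AE) comes first, in a Wnt-low and a Wnt-high class named for Wnt target genes, and the path runs on through conflux AE, where both streams meet, to a pre-hemogenic stage (pre-HE), then hemogenic endothelium (HE), and ends in the cells of intra-aortic clusters (IAC). Wnt targets also split the venous endothelium (VE), and a further class is other endothelium. All 10 endothelial markers were detected in each of the 9 classes of both libraries, while IAC had 1670 CPM of the hematopoietic marker list in the SP3-null and 1711 CPM in the wild-type library, against 645 and 651 CPM in the summed endothelium of the same libraries. Pre-HE held 92 SP3-null and 136 wild-type cells, HE 40 and 59, and IAC 107 and 128.

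Over all 10 members, the level followed the EHT path and was highest just before HE. The summed members stood at 2486 CPM in SP3-null and 2482 CPM in wild-type Wnt-low VE, and at 4030 and 4170 CPM in Wnt-low AE. In conflux AE they reached 7255 CPM in SP3-null and 6922 CPM in wild-type cells. Pre-HE had 7529 and 6910 CPM, the intervals of conflux AE and pre-HE overlapping within each library. In HE they stood at 2250 CPM in SP3-null and 2582 CPM in wild-type cells, and in IAC at 567 and 624 CPM, the lowest level of any class in both libraries. The classes were assigned by the authors from the transcriptome of the same cells, so differences between classes are descriptions and were not tested.

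**Figure D1:**
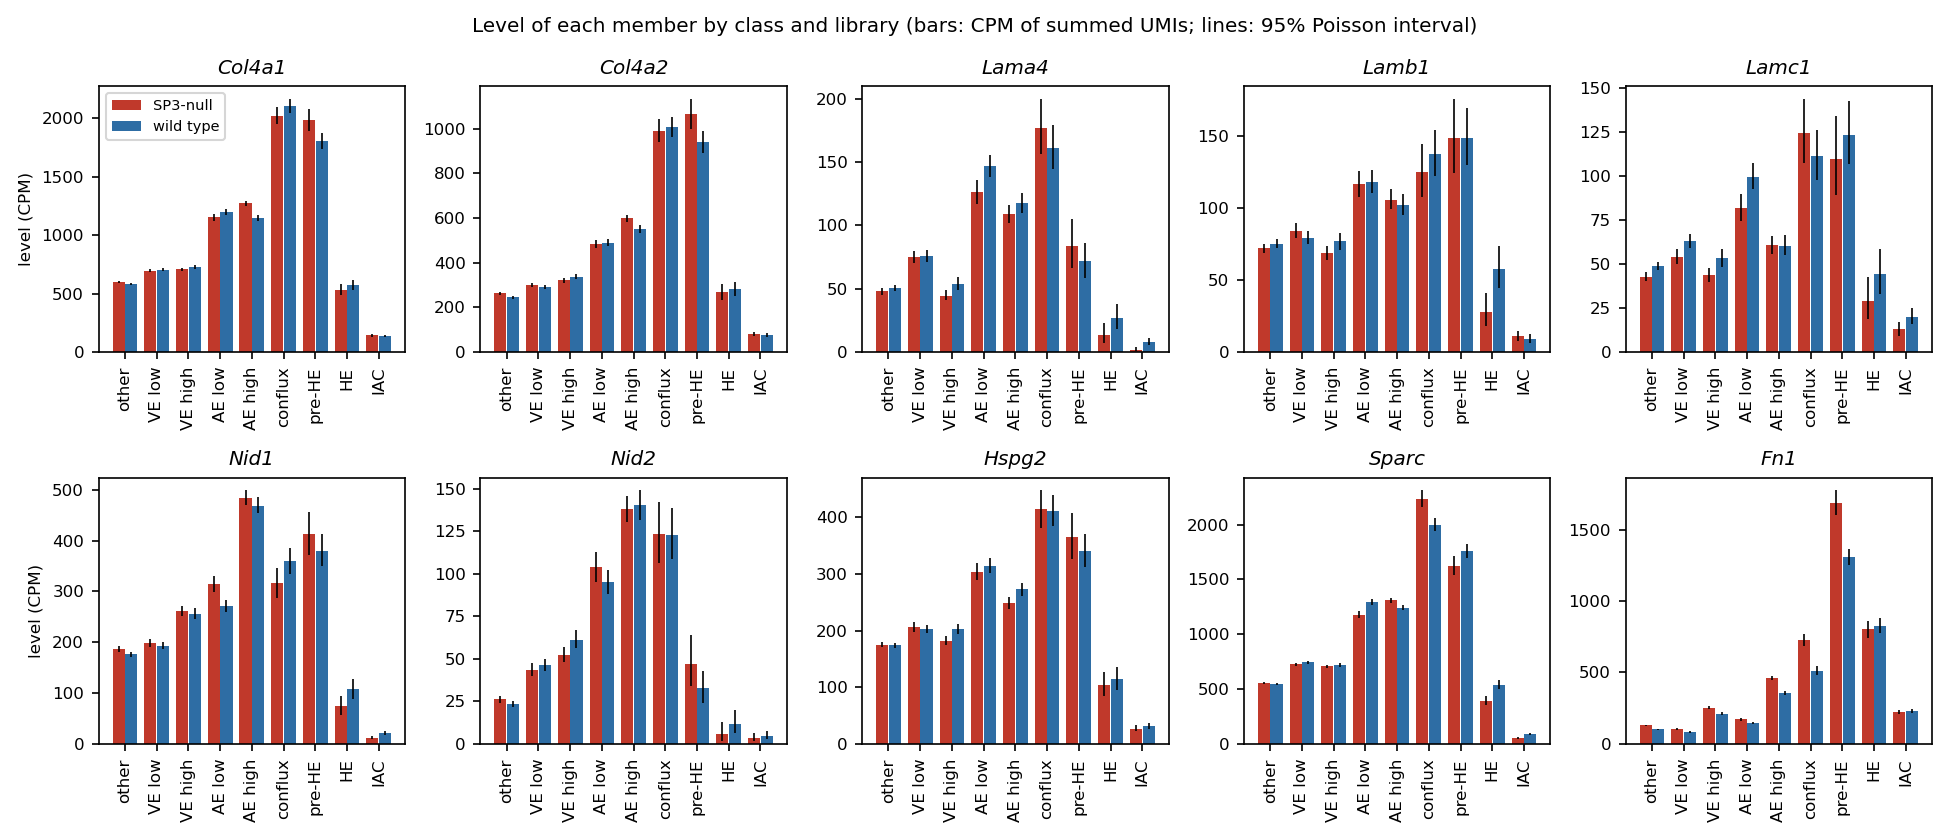
Level of each member in CPM (y axis, from 0) in the 9 classes along the x axis, with SP3-null bars left of wild-type bars and exact Poisson 95% intervals as lines. Most members peak in conflux AE or pre-HE and are lowest in IAC, while Fn1 is highest in pre-HE, at 1692 CPM in SP3-null and 1310 CPM in wild-type cells, and lowest in Wnt-low VE.

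The list of endothelial markers took the same course, so the members did not move alone. That list summed to 6345 CPM in SP3-null and 6039 CPM in wild-type pre-HE, to 1899 and 2249 CPM in HE, and to 550 and 568 CPM in IAC. The share of the members' course that goes with endothelial identity as a whole was not tested. The depth of the cells also moved with the class. The median was 9163 UMIs per cell in SP3-null and 9257.5 in wild-type pre-HE, 21366 and 17656 in HE, and 30343 and 31009 in IAC.

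Cells were also thinned to 5000 UMIs each, and cells with fewer were left out. This kept 106 of 145 SP3-null and 140 of 188 wild-type conflux AE cells, and 74 of 92 and 102 of 136 pre-HE cells. In IAC it kept 103 of 107 and 126 of 128 cells. Among thinned cells, conflux AE and pre-HE again had the highest medians and IAC the lowest. The median cell carried 34 UMIs of the 10 members in SP3-null and 35 in wild-type conflux AE, and 33 and 31 in pre-HE. In HE the medians were 8.5 and 11, beside 10 and 10 in other endothelium, and in IAC 2 and 2.5. No member UMI was left in 34 of 103 SP3-null and 27 of 126 wild-type IAC cells, whereas the lowest pre-HE cell still had 10 and 9. The highest IAC cell reached 14 UMIs in the SP3-null and 18 in the wild-type library, below the lower quartile of pre-HE cells, which was 26 and 24.

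**Figure D2:**
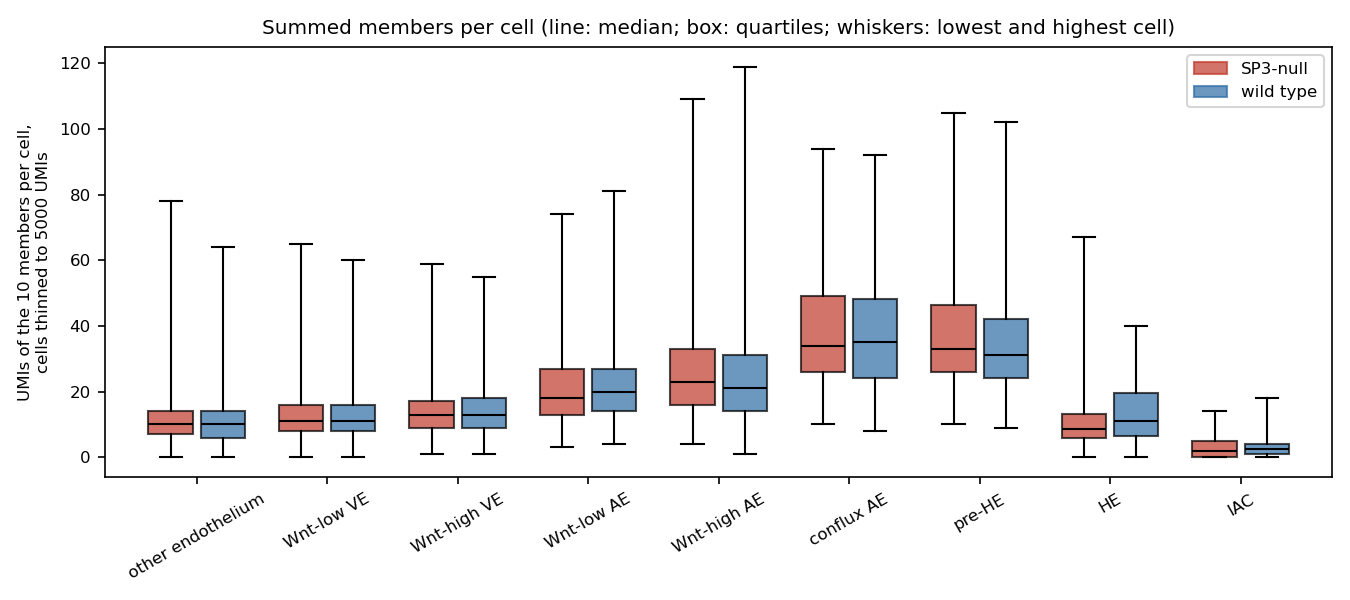
UMIs of the 10 members per cell (y axis) by class (x axis), SP3-null boxes left of wild-type boxes. Each cell was thinned to 5000 UMIs, and cells with fewer were left out. The line is the median, the box the quartiles, and the whiskers the lowest and highest cell. Pre-HE cells have medians of 33 and 31 UMIs, HE cells 8.5 and 11, and IAC cells 2 and 2.5.

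Step by step, counts of members past 1.5-fold can be read against all genes with at least 50 UMIs. From VE to AE, 7 of 10 members were higher in AE in both libraries (Col4a1, Col4a2, Lama4, Nid1, Nid2, Sparc and Fn1), where 11% of all genes were higher in the SP3-null and 10.4% in the wild-type library, and 0 of 10 were lower (background 4.27% and 2.29%). From AE to conflux AE, 7 of 10 were higher in the SP3-null library (background 13.1%) and 4 of 10 in the wild-type one (background 12%), the 4 being Col4a1, Col4a2, Sparc and Fn1, and 0 were lower (background 12.7% and 12.8%). From conflux AE to pre-HE, 1 member was higher, Fn1 (background 11.1% and 10.6%), and 2 were lower, Lama4 and Nid2 (background 7.74% and 7.3%), the same members in both libraries. At the next steps the list fell together. HE was lower than pre-HE for 9 of 9 members measured in the SP3-null library (background 20.6%) and for 10 of 10 in the wild-type one (background 20.7%), and higher for 0 (background 16.4% and 13.9%). IAC was lower than HE for 8 of 8 (background 17.7%) and 9 of 9 members (background 15.2%), with medians of -1.87 and -1.88 log2 units, against -0.053 and -0.014 over all genes, and it was higher for 0 (background 10.1% and 11.6%). Members not counted, Nid2 in both libraries and Lama4 in the SP3-null one, had under 50 UMIs.

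**Figure D3:**
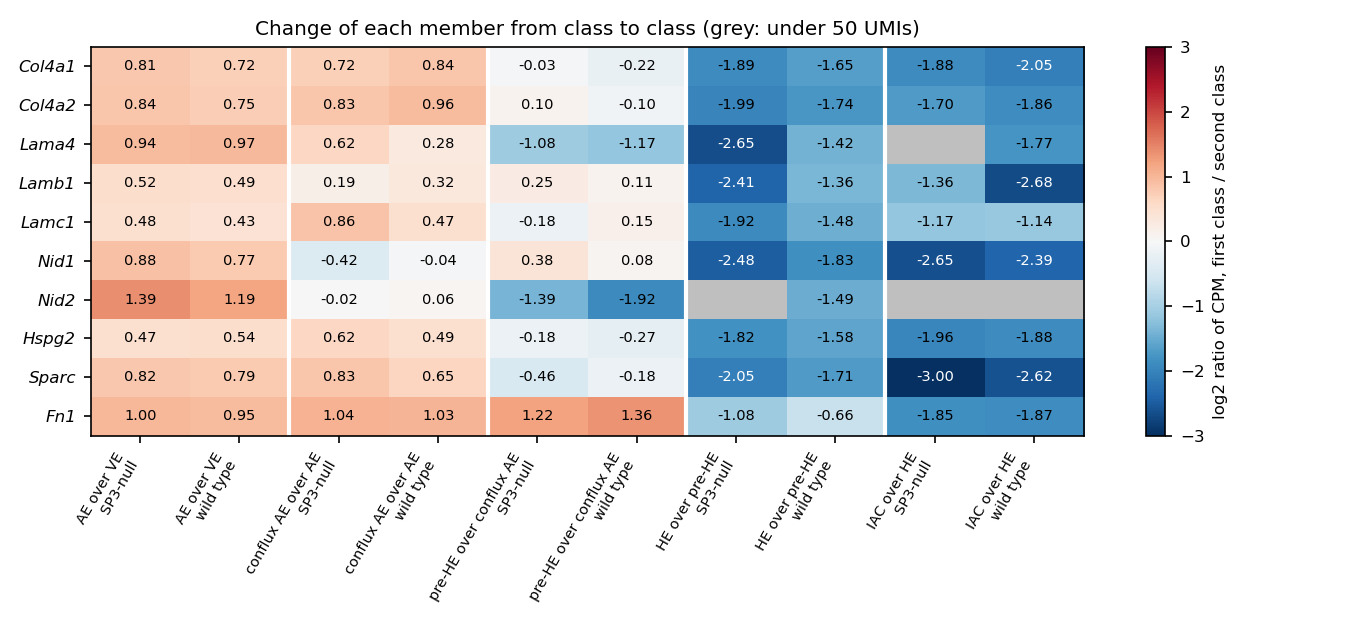
Log2 ratio of CPM of each member (y axis) between successive classes (x axis, SP3-null column left of the wild-type column for each step), red for higher and blue for lower in the class named first, grey for fewer than 50 UMIs. Lama4 and Nid2 are blue and Fn1 is red from conflux AE to pre-HE, and the measured members are blue from pre-HE to HE and from HE to IAC.

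Type IV collagen followed the class pattern of the member sum most closely, and it is itself a large part of that sum. Col4a1 and Col4a2 (chromosome 8, 11198423 to 11312889 and 11312805 to 11449287) encode the α1 and α2 chains, which join as α1α1α2 trimers. Col4a1 stood at 2019 CPM in SP3-null and 2103 CPM in wild-type conflux AE, at 1981 and 1805 CPM in pre-HE, and at 145 and 139 CPM in IAC. Conflux AE had 992 and 1008 CPM of Col4a2, against 1065 and 939 CPM in pre-HE and 82.4 and 77.3 CPM in IAC. In wild-type cells the Col4a1 intervals of conflux AE and pre-HE did not overlap, whereas they did for Col4a2 and, in the SP3-null library, for both chains. For either chain the highest class was 12.9 to 15.1 times the lowest in the 2 libraries. The ratio of their UMIs moved little by comparison. It was highest in Wnt-low AE, at 2.38 Col4a1 UMIs per Col4a2 UMI (2.27 to 2.49) in SP3-null and 2.45 (2.36 to 2.55) in wild-type cells. It was lowest in IAC, at 1.76 (1.52 to 2.05) and 1.80 (1.57 to 2.06). Across the 18 points made by 9 classes in 2 libraries, r between both genes was 0.99, the highest of the 45 pairs of members, and their correlation between thinned cells of 1 class averaged 0.40 over 6 endothelial classes in SP3-null and 0.42 in wild-type cells. These correlations are descriptions, since the points share libraries and classes.

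Between genotypes the collagen chains were close. In the endothelial sum (both AE and both VE classes, conflux AE and pre-HE, 2401 SP3-null and 2639 wild-type cells) Col4a1 stood at 969 CPM in SP3-null and 984 CPM in wild-type cells, a log2 ratio of -0.022 (-0.042 to -0.0021). Col4a2 stood at 442 and 441 CPM, a log2 ratio of 0.00031 (-0.030 to 0.030). Col4a1 and Col4a2 were nonetheless somewhat higher in SP3-null Wnt-high AE, by 0.15 (0.11 to 0.19) and 0.12 (0.062 to 0.18) log2 units, and in pre-HE, by 0.13 (0.047 to 0.22) and 0.18 (0.061 to 0.30). These differences lie beyond counting error and below 1.2-fold.

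Of the laminin chains, Lama4 departed from the summed pattern at pre-HE. Lama4 (chromosome 10, 38965515 to 39110188), Lamb1 (chromosome 12, 31265146 to 31329644) and Lamc1 (chromosome 1, 153218922 to 153332786) encode the α4, β1 and γ1 chains of laminin-411, an isoform typical of vessels, of which the β1 and γ1 chains are shared with many other laminins. Lama4 stood at 177 CPM (157 to 200) in SP3-null and 161 CPM (144 to 179) in wild-type conflux AE, and at 84.2 (66.2 to 106) and 71.6 CPM (58.8 to 86.3) in pre-HE, log2 ratios of -1.08 and -1.17 between the classes. For Lamb1, conflux AE had 125 CPM in SP3-null and 138 CPM in wild-type cells, and pre-HE 148 and 148 CPM. For Lamc1, the same classes had 125 and 111 CPM, then 110 and 124 CPM. From conflux AE to pre-HE only Lama4 of these chains passed 1.5-fold, the log2 ratios being 0.25 and 0.11 for Lamb1 and -0.18 and 0.15 for Lamc1, with intervals that spanned 0. In IAC, Lama4 was down to 7 UMIs in the SP3-null and 33 UMIs in the wild-type library, 2.01 CPM (0.81 to 4.14) and 7.83 CPM (5.39 to 11.0).

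Between genotypes Lamc1 was the lowest member. In the endothelial sum it stood at 60.4 CPM (58.0 to 62.8) in SP3-null and 71.8 CPM (69.2 to 74.4) in wild-type cells, a log2 ratio of -0.25 (-0.33 to -0.17), just inside 1.2-fold and at percentile 9.50 of the 10146 genes with at least 200 UMIs. The ratio was below 0 in 7 of 9 classes, with the interval below 0 in 5, and was 0.0054 in Wnt-high AE and 0.16 in conflux AE. With the 6 classes of the sum weighted alike it was -0.11. Lama4 followed with -0.17 (-0.23 to -0.10), at 84.9 CPM in SP3-null and 95.2 CPM in wild-type cells, but was -0.014 among cells thinned to 5000 UMIs and -0.025 with classes weighted alike. Lamb1 stood at 91.92 and 95.01 CPM, a log2 ratio of -0.048 (-0.11 to 0.018).

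The nidogens, which link laminin to collagen IV, peaked earlier than the other members. Nid1 (chromosome 13, 13437602 to 13512275) was highest in Wnt-high AE, at 484 CPM (470 to 499) in SP3-null and 469 CPM (453 to 485) in wild-type cells, above pre-HE with 412 (371 to 456) and 380 CPM (350 to 412). Nid2 (chromosome 14, 19751257 to 19811787) was highest there too, at 138 and 140 CPM, not separable from 123 and 123 CPM in conflux AE, and stood at 47.1 (34.0 to 63.7) and 32.5 CPM (24.1 to 42.9) in pre-HE. Nid2 was thus low in pre-HE, where Nid1 had its second highest level. Nid1 was among the 2 members at least 1.5-fold higher in Wnt-high than in Wnt-low AE in both libraries (background 8.79% and 8.02%), the other being Fn1, while Lamc1 was lower there in the wild-type library (background 4.08% and 3.81% for lower genes). From Wnt-low to Wnt-high VE, Fn1 was higher in both libraries (background 5.05% and 5.28%) and Lama4 lower in the SP3-null one (background 2.81% and 2.89%). Between genotypes, Nid1 stood at 305 CPM in SP3-null and 283 CPM in wild-type endothelium (log2 ratio 0.11, 0.075 to 0.15), and Nid2 at 78.4 and 77.7 CPM (0.013, -0.058 to 0.085).

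Hspg2 (chromosome 4, 137468751 to 137570630), which encodes perlecan, and Sparc (chromosome 11, 55394159 to 55420080) peaked in conflux AE. Hspg2 stood at 414 CPM in SP3-null and 412 CPM in wild-type conflux AE, at 366 and 341 CPM in pre-HE, and at 26.7 and 30.8 CPM in IAC. Its intervals of conflux AE and pre-HE overlapped in the SP3-null library but not in the wild-type one. Sparc stood at 2236 CPM (2161 to 2314) and 1997 CPM (1938 to 2058) in conflux AE, and at 1624 CPM (1541 to 1710) and 1759 CPM (1694 to 1827) in pre-HE. The order of the genotypes for Sparc was thus opposite in these neighbouring classes, with log2 ratios of 0.16 (0.097 to 0.23) and -0.12 (-0.21 to -0.023). In IAC Sparc stood at 49.1 CPM (42.0 to 57.0) in SP3-null and 87.8 CPM (79.0 to 97.2) in wild-type cells, and its highest class was 45.6 and 22.8 times its lowest. In cells thinned to 5000 UMIs Sparc was detected in 74 of 74 SP3-null and 102 of 102 wild-type pre-HE cells, in 21 of 36 and 43 of 55 HE cells, and in 16 of 103 and 37 of 126 IAC cells. Over all cells, shallower ones included and none thinned, the shares were 97.8% and 100% in pre-HE. They were 85.0% and 98.3% in HE, and 50.5% and 58.6% in IAC. In the endothelial sum the log2 ratio was -0.050 for Sparc, at 988 CPM in SP3-null and 1022 CPM in wild-type cells, and -0.099 for Hspg2, at 234 and 250 CPM.

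In its levels across the classes, Fn1 was the member apart from the rest. Between thinned cells of 1 class it was not. Its correlation with Col4a1 averaged 0.29 over 6 endothelial classes in SP3-null and 0.29 in wild-type cells. That lay between the values of Col4a1 with Col4a2 (0.40 and 0.42) and with Lamc1 (0.17 and 0.23). Fn1 (chromosome 1, 71585473 to 71653280) encodes fibronectin, which is a matrix protein but not a core part of the basement membrane. It was lowest in Wnt-low VE, at 104 CPM (97.9 to 110) in SP3-null and 81.6 CPM (77.1 to 86.3) in wild-type cells. It was highest in pre-HE, at 1692 CPM (1608 to 1780) and 1310 CPM (1253 to 1368). In HE it stood at 802 CPM (744 to 863) in SP3-null and 828 CPM (775 to 882) in wild-type cells, second among the classes in both libraries. Conflux AE came next with 728 CPM (685 to 773) and 511 CPM (481 to 543), so that its interval overlapped that of HE in the SP3-null library only. In IAC Fn1 stood at 222 and 227 CPM, and it was the 1 of 10 members not at least 1.5-fold lower in IAC than in the endothelial sum (background for lower genes 26% and 25%). No member was at least 1.5-fold higher there (background 19.6% and 19.7%). In thinned cells Fn1 was detected in 33 of 36 SP3-null and 48 of 55 wild-type HE cells, and in 49 of 103 and 66 of 126 IAC cells. Over all cells without thinning the shares were 95% and 94.9% in HE, and 67.3% and 81.3% in IAC.

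From conflux AE on, Fn1 took a growing share of the UMIs of the list. In AE and VE the share was higher in the Wnt-high than in the Wnt-low class. The members without Fn1 summed to 2383 CPM in SP3-null and 2400 CPM in wild-type Wnt-low VE. They rose to 5836 and 5600 CPM in pre-HE, where Fn1 was highest too. In IAC they were down to 344 and 397 CPM, while Fn1 fell less. The share was 4.17% (3.94% to 4.40%) in SP3-null and 3.29% (3.11% to 3.48%) in wild-type Wnt-low VE. It was 9.61% and 7.84% in Wnt-high VE, 4.23% and 3.44% in Wnt-low AE, and 9.65% and 8.03% in Wnt-high AE. In conflux AE it was 10.0% and 7.39%. It was 22.5% and 19.0% in pre-HE, 35.6% and 32.0% in HE, and 39.2% (37.1% to 41.4%) and 36.3% (34.5% to 38.2%) in IAC. The makeup of the list thus changed from class to class within each library. How much of the low IAC counts came from free RNA was not tested.

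**Figure D4:**
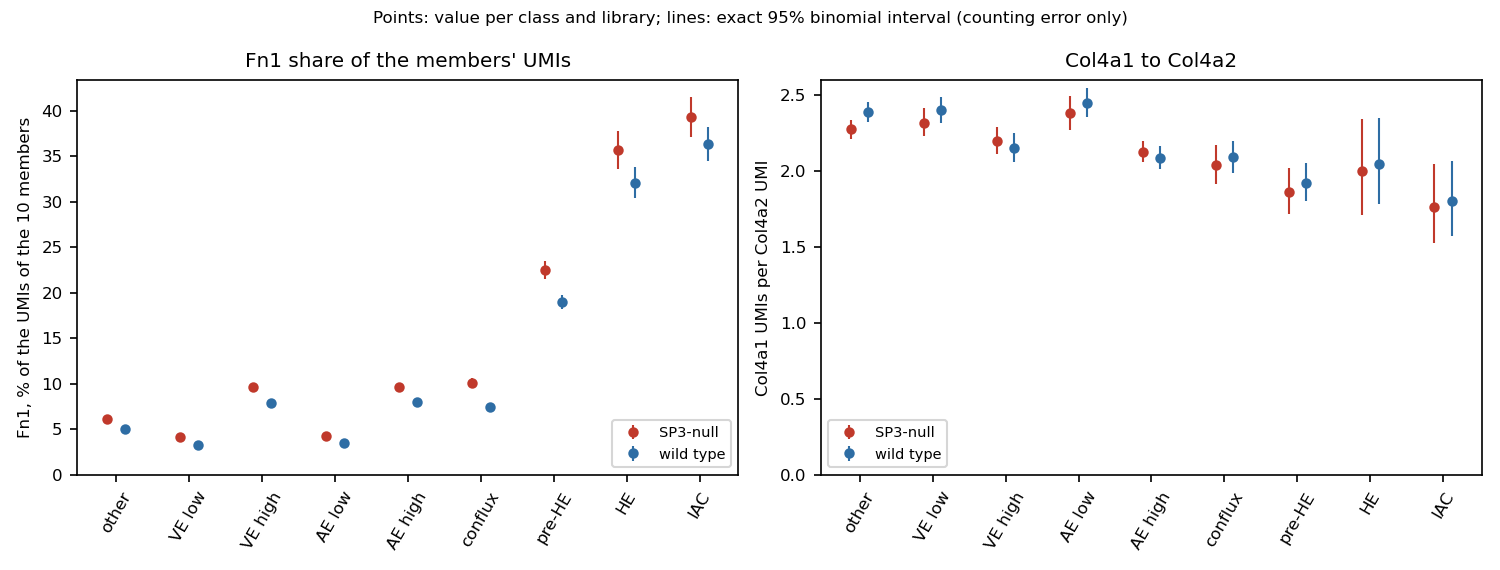
Left, Fn1 as a percentage of the UMIs of the 10 members, and right, Col4a1 UMIs per Col4a2 UMI (both y axes from 0), by class on the x axis, SP3-null points left of wild-type points, with exact 95% binomial intervals. The Fn1 share reaches 39.2% in SP3-null and 36.3% in wild-type IAC, while the collagen ratio stays between 1.76 and 2.45.

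Fn1 was also the member that differed most between genotypes in the summed endothelium. In the endothelial sum it stood at 295 CPM (290 to 300.2) in SP3-null and 234 CPM (229 to 239) in wild-type cells, a log2 ratio of 0.33 (0.30 to 0.37). It was the 1 of 10 members at least 1.2-fold higher, against a background of 4.04% of 10146 genes, and 0 of 10 were at least 1.2-fold lower, against 8.82%. Fn1 lay at percentile 97.5 of all genes, which is a place in these 2 libraries and not a test. The median log2 ratio was -0.035 over the 10 members and -0.021 over all genes. The 10 members summed to 3547 CPM in SP3-null and 3553 CPM in wild-type endothelium, a log2 ratio of -0.0028 (-0.013 to 0.0078), and without Fn1 to 3252 and 3320 CPM, a log2 ratio of -0.030 (-0.041 to -0.019).

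The Fn1 difference ran through the endothelial classes apart from HE. Its log2 ratio was 0.35 in other endothelium (129 CPM in SP3-null and 101 CPM in wild-type cells), 0.34 in Wnt-low VE, 0.26 in Wnt-high VE, 0.25 in Wnt-low AE, 0.37 in Wnt-high AE, 0.37 in pre-HE and 0.51 in conflux AE. In each of these 7 classes the counting interval lay above 0. It was -0.046 (-0.19 to 0.096) in HE and -0.028 (-0.17 to 0.11) in IAC. These last values moved with the choice of cells, between -0.45 and 0.072 in HE and between -0.19 and 0.21 in IAC. Whether the ratio differs between these 7 classes and HE or IAC was not tested. Fn1 was higher in Wnt-high than in Wnt-low classes, and SP3-null AE held 574 Wnt-high and 348 Wnt-low cells, against 467 and 472 wild-type cells. Over both AE classes together the ratio was 0.50, above its value within either class. With the 6 classes of the sum weighted alike it was 0.38. With each cell weighted alike, Fn1 fell short of 1.2-fold in other endothelium (0.24), Wnt-low VE (0.24), Wnt-high VE (0.20) and pre-HE (0.22). The smallest value within any of the 7 classes was 0.049, in Wnt-low AE with each cell thinned to 5000 UMIs. Without cells that held any mesenchymal or mural marker UMI the endothelial ratio was 0.37, while the mesenchyme list itself stood at 6.74 CPM in SP3-null and 6.37 CPM in wild-type endothelium.

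**Figure D5:**
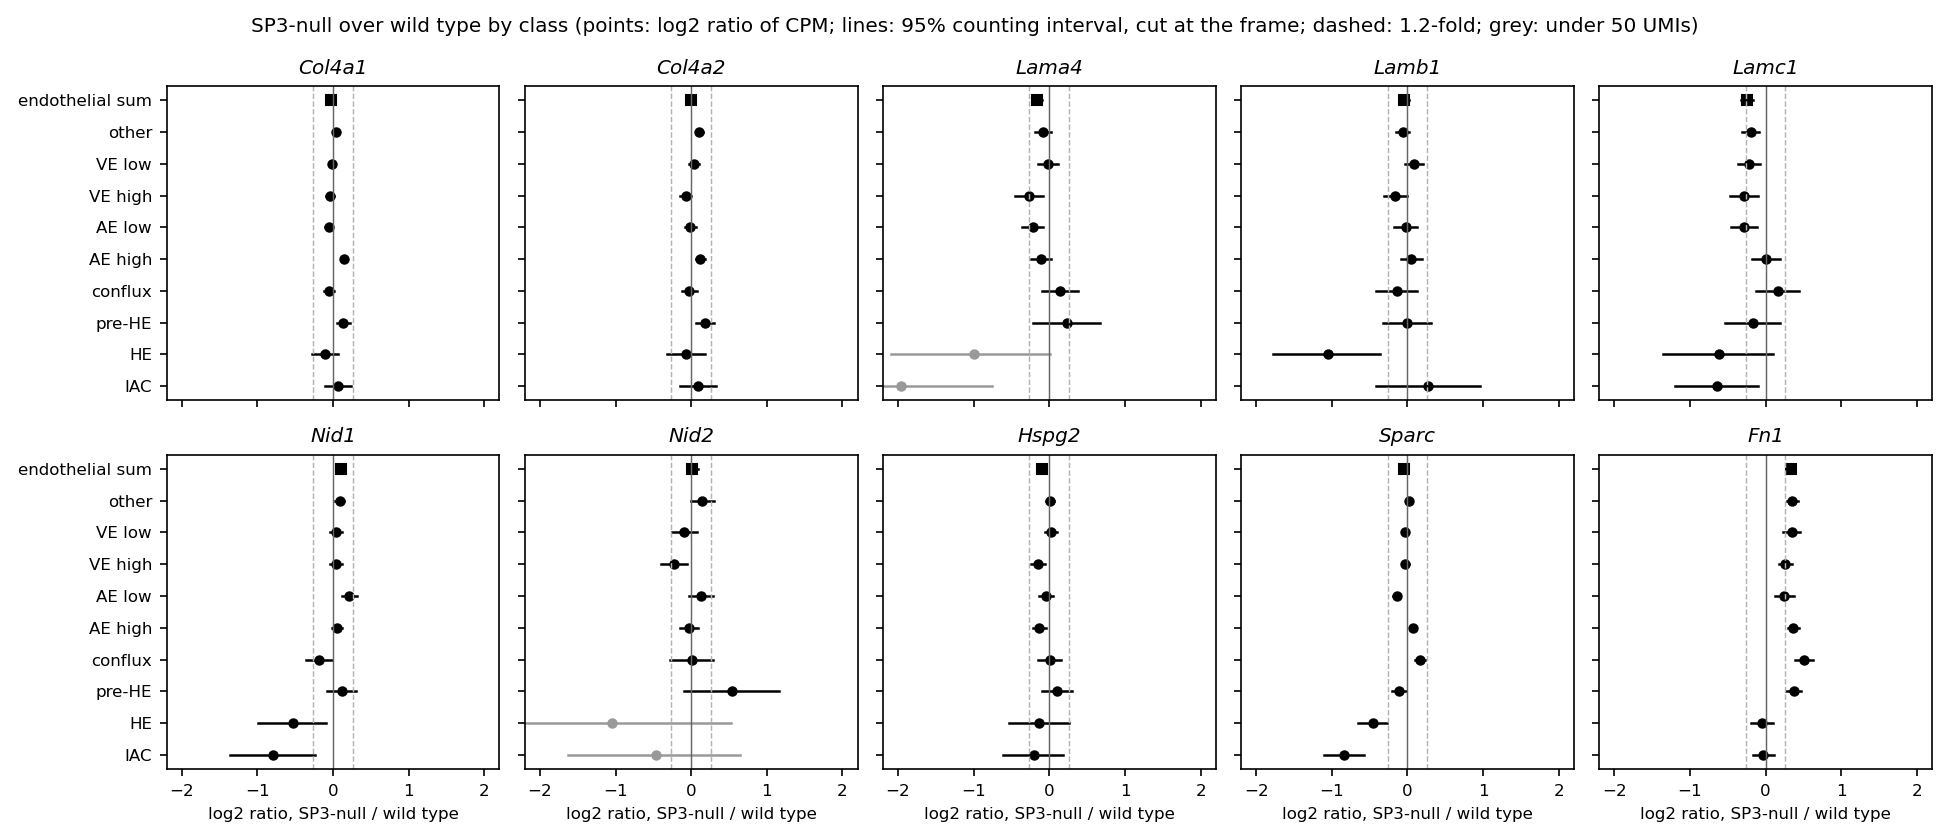
Log2 ratio of SP3-null over wild-type CPM (x axis) for each member in the endothelial sum (square) and in each class (circles, y axis), with 95% counting intervals cut at the frame, dashed lines at 1.2-fold and grey marks for fewer than 50 UMIs. Fn1 lies right of 0 in the endothelial sum and in 7 classes but not in HE or IAC, and Sparc and Nid1 lie left of 0 in HE and IAC.

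Within single classes few members passed 1.2-fold, and most of those counts were near the background. Besides Fn1 (background for higher genes 6.56% in other endothelium, 7.32% in Wnt-low VE, 7.63% in Wnt-high VE, 8.06% in Wnt-high AE and 16.1% in conflux AE), Nid2 was past it in pre-HE with 47.1 CPM in SP3-null and 32.5 CPM in wild-type cells (2 of 10 members with Fn1, background 20.6%). The Nid2 ratio, 0.53 on 42 and 50 UMIs, had an interval that spanned 0 (-0.092 to 1.16). Lamc1 was lower in Wnt-low AE (1 of 10, background 15%), where 0 were higher (background 8.93%), and, with Lama4, in Wnt-high VE (2 of 10, background 14.2%). No member was lower in other endothelium (background 11.6%), Wnt-low VE (11.8%), Wnt-high AE (15.7%), conflux AE (17.7%) or pre-HE (19.9%). The pre-HE values stand beside marker lists that differed more. The mural list stood at 157 CPM in SP3-null and 445 CPM in wild-type pre-HE, with 4 and 3 of 10 markers at 0, and the neural and crest list at 585 and 923 CPM, with 5 and 6 of 8 at 0. Their part in the pre-HE values was not tested.

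In HE and IAC, counts of lower members held under some settings of the cells and changed under others. In HE with all UMIs, 4 of 8 members with at least 50 UMIs were at least 1.2-fold lower in the SP3-null library, Lamb1, Lamc1, Nid1 and Sparc, where 18.4% of genes were, and 0 were higher (background 21.3%). Counts of 4 lower and 0 higher also held with each cell weighted alike and in cells with at least 3000 UMIs. They held too without the deepest 5% of cells and with a mitochondrial share under 10%. In HE cells thinned to 5000 UMIs, 2 were lower and 1 was higher. Without cells with mesenchymal or mural marker UMIs, 5 were lower and 3 higher, on 9 SP3-null and 19 wild-type cells. The share of all genes was computed with all UMIs only, so the counts under the other settings have no background. Sparc stood at 391.9 CPM (352 to 435) in SP3-null and 539 CPM (497 to 583) in wild-type HE, a log2 ratio of -0.46 (-0.65 to -0.27), and Nid1 at 73.7 and 107 CPM, -0.53 (-0.99 to -0.088). In thinned cells both differences were nearly gone, with ratios of -0.018 for Sparc, on 106 and 164 UMIs, and -0.048 for Nid1, on 19 and 30 UMIs. Lamb1 rested on 25 and 65 UMIs, with a ratio of -1.05 (-1.78 to -0.36), and Lamc1 on 26 and 50 UMIs, with an interval that spanned 0 (-1.36 to 0.097). Thinned, these ratios were -0.39 and -0.089. Over 6 alternatives the HE ratio stayed inside its counting interval in 6 for Lamb1, 5 each for Sparc and Lamc1 and 3 for Nid1. The endothelial marker list was lower in the same cells by 0.24 log2 units, with the 1899 and 2249 CPM given above, and the mesenchyme list stood at 24.6 and 9.78 CPM, with 4 and 6 of 10 markers at 0.

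In IAC, 3 of 8 members were lower, Lamc1, Nid1 and Sparc (background 18.1%), and 1 was higher, Lamb1 (background 11%), with 38 UMIs in each library and an interval from -0.41 to 0.96. Sparc had a log2 ratio of -0.84 (-1.11 to -0.57). Nid1 stood at 11.8 CPM (8.44 to 16.0) in SP3-null and 20.4 CPM (16.3 to 25.2) in wild-type IAC, a ratio of -0.79 (-1.37 to -0.24). Lamc1 stood at 12.9 and 20.2 CPM, a ratio of -0.64 (-1.20 to -0.10). In cells thinned to 5000 UMIs the ratio turned for Nid1 (0.12, on 8 and 9 UMIs) and Lamc1 (0.43, on 11 and 10 UMIs). It also turned for Lamb1 (-0.12, on 6 and 8 UMIs). Such low counts cannot decide a direction. In 5 of 6 alternatives the ratio of each of these 3 genes stayed inside its counting interval, and no firm direction is read for them in IAC. The Lamc1 ratio was -0.20 with each cell weighted alike. Sparc kept its direction, at -1.25 in thinned cells (21 and 61 UMIs) and -0.37 without cells with mesenchymal or mural marker UMIs. Col4a1, Col4a2 and Fn1, by contrast, had IAC ratios of 0.063, 0.091 and -0.028, each with an interval that spanned 0. The macrophage list stood at 283 CPM in SP3-null and 190 CPM in wild-type IAC, with 0 of 8 markers at 0 in either library, and its part in these values was not tested. HE and IAC came from few cells of 1 pool each, so counting intervals understate their error.

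Across the 18 points of class and library the 10 genes nearest to the summed members, among 9894 genes ranked by Pearson's r of log2(CPM + 1), were Map1lc3b (r = 0.996), Ece1, Epas1, Efemp2, Ecscr, Cd93, Sgce, Pecam1, Pja2 and Itm2c (r = 0.985). Map1lc3b, which encodes the autophagosome protein LC3B, stood at 314 CPM in SP3-null and 302 CPM in wild-type conflux AE, against 110 and 107 CPM in IAC. Pecam1, which encodes the junction protein CD31 of the sort, stood at 657 and 734 CPM in conflux AE, against 83.2 and 68.5 CPM in IAC. Of the members, Col4a1 (0.995) and Col4a2 (0.995), which are part of the sum, lay nearest and Fn1 (0.49) farthest. Among pairs of members, r was lowest between Nid2 and Fn1, at -0.0092. The points share libraries, and the values are given as a description.

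Of the other basement membrane components, 15 of 28 listed genes had at least 200 UMIs in the endothelial sum, where 0 were at least 1.2-fold higher and 5 lower in the SP3-null library (Lama5, Col4a5, Col15a1, Tinagl1 and Fbln1). The background was 4.04% and 8.82%, and the median ratio -0.054, against -0.021 over all genes. Egfl7, which encodes a secreted angiogenic factor of endothelium, stood at 672 CPM in SP3-null and 643 CPM in wild-type cells (log2 ratio 0.064), and Col18a1, the source of endostatin, at 384 and 399 CPM (-0.054). The extremes were Vwa1, which encodes a perlecan-binding protein, and Tinagl1. Vwa1 stood at 94.2 and 80.4 CPM (0.23, 0.16 to 0.30), and Tinagl1 at 7.96 and 13.2 CPM (-0.73, -0.93 to -0.53). Within the classes of the sum the Vwa1 ratio ran from -0.25 in Wnt-high VE to 0.53 in conflux AE. It was 0.027 in Wnt-high AE, the class with its highest level, at 253 and 249 CPM. The part of the class mix in the summed ratio was not tested. In the SP3-null library 9 of 9 genes of this list were at least 1.5-fold lower in HE than in pre-HE (background 20.6%). In the wild-type library it was 12 of 14 (background 20.7%), and the members fell at this step too.

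Of 22 collagen folding and modification genes, which act mostly in the secretory pathway, 16 were measured, with 0 higher (background 4.04%) and 4 lower (P4ha2, P3h1, P3h3 and Crtap, background 8.82%) and a median of -0.0093. Ppib, a prolyl isomerase, stood at 795 CPM in SP3-null and 765 CPM in wild-type endothelium, and Serpinh1, which encodes the collagen chaperone HSP47, at 770 and 780 CPM, log2 ratios of 0.056 and -0.020. The prolyl 4-hydroxylase subunits P4ha1 and P4ha2 marked the extremes, at 79.2 and 66.5 CPM (0.25, 0.18 to 0.33) and at 2.08 and 4.47 CPM (-1.10, -1.50 to -0.72). P3h1, P3h3 and Crtap, of which P3h1 and Crtap encode parts of the same prolyl 3-hydroxylation complex, were each on the lower side. From pre-HE to HE, 5 of 11 genes of this list were lower in the SP3-null (background 20.6%) and 8 of 13 in the wild-type library (background 20.7%). The medians of the list were -0.57 and -0.74 log2 units, against -1.99 and -1.54 for the members.

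Of 25 matrix receptors, 13 were measured, with 1 higher (background 4.04%) and 2 lower (background 8.82%) and a median of -0.0086. Itgb1, the β1 chain of most matrix-binding integrins, stood at 445 CPM in SP3-null and 452 CPM in wild-type endothelium, and Cd93, an endothelial transmembrane receptor, at 249 and 250 CPM, log2 ratios of -0.021 and -0.0086. The receptor past 1.2-fold upward was Itga4, the α4 integrin chain that binds fibronectin and VCAM1, at 41.6 and 25.3 CPM (0.71, 0.60 to 0.83). Itga4 lies 6.27 Mb from Sp3 on chromosome 2, and its ratio varied between classes, from 1.52 in conflux AE (34 and 17 UMIs) to -1.21 in pre-HE (6 and 24 UMIs), with 0.35 in Wnt-high AE (113 and 88.4 CPM) and -0.16 in IAC (125 and 139 CPM). Whether the distance to Sp3 plays a part was not tested. Itga2, a collagen receptor chain, and Sdc1, which encodes the proteoglycan syndecan-1, were lower, Sdc1 at 4.66 and 10.5 CPM (-1.17, -1.42 to -0.92). Itga4 was also the receptor at least 1.5-fold higher in HE than in pre-HE in both libraries (background 16.4% and 13.9%). It was higher again in IAC than in HE (background 10.1% and 11.6%). Itgb1 was among the 8 of 10 and 7 of 11 receptors lower in HE than in pre-HE (background 20.6% and 20.7%). It was also among the 7 of 9 and 7 of 10 lower in IAC than in HE (background 17.7% and 15.2%).

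Of 22 matrix proteases and their inhibitors, 20 were measured, with 2 higher (Timp2 and Spock2, background 4.04%), 5 lower (Mmp11, Adamts1, Plau, Htra1 and Serpine2, background 8.82%) and a median of -0.15. Timp3, a matrix-bound inhibitor of metalloproteinases, stood at 299.9 CPM in SP3-null and 263 CPM in wild-type endothelium (0.19, 0.15 to 0.22), and the cathepsin gene Ctsl at 256 and 241 CPM (0.088). Timp2, another such inhibitor, stood at 9.89 and 7.08 CPM (0.48, 0.26 to 0.70) and was above 0 in all 9 classes, from 0.18 in pre-HE to 1.39 in Wnt-high VE, the last of these on 81 and 24 UMIs. Htra1, a secreted serine protease, stood at 3.57 and 6.89 CPM (-0.95, -1.25 to -0.65). Pre-HE held 81 of its SP3-null and 210 of its wild-type UMIs, with a ratio of -0.59 there. As sums over all their genes, the log2 ratio in the endothelium was -0.023 for the other basement membrane components, 0.012 for collagen folding, 0.018 for the receptors and 0.000022 for the proteases and inhibitors.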

How the data were processed

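Single-cell RNA-seq (10x Chromium 3′ kit) of 1 SP3-null and 1 wild-type library was analysed from the count matrix and cell table. The authors aligned and counted reads with Cell Ranger (version not given in the sources used here, build mm10), removed barcodes with few UMIs and contaminating cells, projected the cells onto a published EHT map and gave each cell the class of its nearest neighbours. The deposited counts are UMIs per gene and cell, and the deposited mitochondrial share is a fraction of each cell's UMIs. Cell sums of the matrix lay 0 to 197 UMIs below the deposited totals. The authors' cell classes were used as given, and the class held by 1 cell was left out.

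UMIs were summed per class and library and divided by all UMIs of the same cells (CPM). Intervals are exact (Poisson for levels, conditional binomial for ratios, Clopper-Pearson for shares) at 95%. Genes needed 200 UMIs in the endothelial sum, or 50 within a class, and were called at 1.2-fold between libraries and 1.5-fold between classes. No doublet caller was run. The members and gene lists were chosen with earlier results of these data known. From each list the 2 genes with most UMIs and the highest and lowest ratio are named. The code was tested on simulated data. Alternatives covered scaling (edgeR 4.0.16, DESeq2 1.42.0), weighting, depth, thinning, marker-positive cells, mitochondrial share and classes summed. Python 3.11.15, numpy 2.4.6, scipy 1.17.1 and pandas 2.3.3 were used.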

Additional observations from a re-analysis of the deposited data

Results flagged for a closer look

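Among the members, 4 had ratios between genotypes that ran opposite ways in different classes, with counting intervals on either side of 0. Col4a1 was higher in SP3-null Wnt-high AE (log2 ratio 0.15) and lower in Wnt-low AE (-0.06). Col4a2 was higher in SP3-null pre-HE (0.18) and lower in Wnt-high VE (-0.07). Nid1 was higher in SP3-null Wnt-low AE (0.22) and lower in IAC (-0.79). Sparc was higher in SP3-null conflux AE (0.16) and lower in IAC (-0.84). In cells thinned to 5000 UMIs the Nid1 ratio in IAC was 0.12. The difference between classes was not tested, since each genotype had 1 library.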

How the results depend on the processing

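The log2 ratio of the summed members in the endothelium, -0.0028, stayed near 0 but changed by more than its counting interval under some settings. It was 0.017 with TMM and 0.018 with DESeq2 size factors, 0.056 with 6 classes weighted alike, 0.029 with other endothelium added, 0.062 in arterial classes alone, 0.012 with thinned cells, -0.028 without cells with mesenchymal or mural marker UMIs, 0.0091 in cells with a mitochondrial share under 10% and 0.016 without Sparc. The number of members past 1.2-fold was 2 with each cell weighted alike and 2 in venous classes alone, with Lamc1 lower beside Fn1, and 0 at 1.5-fold. The share of all genes was not computed under these settings, so these counts have no background. The summed members in IAC over endothelium, -2.65 in SP3-null and -2.51 in wild-type cells, were -2.90 and -2.74 with each cell weighted alike, -3.15 and -3.20 without marker-positive cells, -2.50 and -2.36 under the mitochondrial limit and -2.31 and -2.24 without Sparc. In wild-type cells they were also -2.60 without the deepest 5% of cells and -2.66 with thinned cells. The causes were not tested. After seeing the data, the ratio of each member within each class was recomputed under 6 settings of the cells. Ratios past 1.2-fold turned for Lamb1 (-0.12), Lamc1 (0.43) and Nid1 (0.12) in IAC with thinned cells, and for Nid1 in HE (0.27) without marker-positive cells. The Fn1 ratio ran from 0.29 to 0.50 over 12 alternatives. No paired analysis was possible because each genotype had 1 library. HE and IAC rest on few cells, and free RNA and doublets were not measured.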
